A study of Mus musculus with 6 samples.

Results

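The globin genes of mouse were examined in whole fetal lungs with and without Dppa2. The rule named 6 genes: the embryonic globins Hba-x, Hbb-y and Hbb-bh1, and the adult globins Hba-a1, Hbb-b1 and Hbb-b2. All probes that are not controls and whose accession carries one of these symbols in the RefSeq gene table were taken. This gave 5 probes for 4 of the 6 genes, out of 41174 probes for 18217 genes with a symbol. The symbols Hbb-b1 and Hbb-b2 were matched by no probe. The adult beta-globin probes of the array, 4 in number with the accession NM_008220, carry the symbol Hbb-bt in that table and are described under this name, so that 5 genes and 9 probes are covered. The genes were proposed with the difference between knockout and wild type lungs known. Differences between the groups are therefore a description of these arrays and no independent evidence.

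Lungs were taken at E18.5, shortly before birth, and each of 6 arrays held RNA of 1 lung. Wild types, 3 in number, had the genotype 15-1+/+, 15-2+/+. Knockouts, also 3, had 15-1Flox/Flox with 15-2-/-. ECAT15-2 is Dppa2 and ECAT15-1 is Dppa4, so the knockout embryos were also homozygous for a floxed Dppa4 allele that the wild types did not carry. All came from crosses of double heterozygous parents on a background mixed from 129Sv, C57/BL6 and a Cre or FLPe transgenic line whose strain the labels call unknown. The labels do not say which litter an embryo came from, so p-values measure the spread between these lungs.

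Hemoglobin is a tetramer of alpha-like and beta-like globin chains around heme. In mouse, primitive red cells that arise in the yolk sac make the embryonic chains, zeta from Hba-x and epsilon-y and beta-h1 from Hbb-y and Hbb-bh1. Definitive red cells, which arise in the fetal liver, make mainly the adult chains from Hba-a1 and Hba-a2 and from the adult beta genes. The alpha-like genes lie together on chromosome 11 and the beta-like genes on chromosome 7, with the embryonic gene at one end of each cluster. The adult beta genes are named by haplotype: Hbb-bs and Hbb-bt in C57BL/6, Hbb-b1 and Hbb-b2 in other strains. A dissected lung holds blood in its vessels.

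The start regions of both gene classes are shown because the report contrasts the embryonic with the adult gene of each cluster. Each sequence is from RefSeq, build GRCm38.p6, and runs 5′ to 3′ on the strand of the gene from 250 bases before the start to 50 after it. Hba-x is at chr11:32276350-32276649 (plus strand), Hbb-y at chr7:103853158-103853457 (minus), Hba-a1 at chr11:32283422-32283721 (plus) and Hbb-bt at chr7:103813874-103814173 (minus). Capitals mark GATA motifs (GATA with A or T before it and A or G after it), CACCC and CCAAT on either strand, and TATAAA or ATAAAA on the strand of the gene.
Hba-x: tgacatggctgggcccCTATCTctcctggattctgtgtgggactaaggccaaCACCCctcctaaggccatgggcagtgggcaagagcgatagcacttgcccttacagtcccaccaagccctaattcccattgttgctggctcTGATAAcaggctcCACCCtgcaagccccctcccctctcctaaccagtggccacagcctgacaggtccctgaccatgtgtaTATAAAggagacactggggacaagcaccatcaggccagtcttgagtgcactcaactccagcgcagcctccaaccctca
Hbb-y: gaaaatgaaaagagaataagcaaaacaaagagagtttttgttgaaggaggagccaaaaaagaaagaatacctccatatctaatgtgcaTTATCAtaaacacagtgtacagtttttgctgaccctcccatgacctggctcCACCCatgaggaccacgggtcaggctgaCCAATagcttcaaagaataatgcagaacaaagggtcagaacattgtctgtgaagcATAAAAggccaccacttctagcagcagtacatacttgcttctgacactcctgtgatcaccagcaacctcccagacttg
Hba-a1: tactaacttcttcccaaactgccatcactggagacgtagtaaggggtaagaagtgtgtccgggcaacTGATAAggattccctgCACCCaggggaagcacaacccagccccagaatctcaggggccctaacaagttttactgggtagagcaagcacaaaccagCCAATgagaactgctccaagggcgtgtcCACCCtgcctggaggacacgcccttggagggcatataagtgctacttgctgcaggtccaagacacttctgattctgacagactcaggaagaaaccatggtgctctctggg
Hbb-bt: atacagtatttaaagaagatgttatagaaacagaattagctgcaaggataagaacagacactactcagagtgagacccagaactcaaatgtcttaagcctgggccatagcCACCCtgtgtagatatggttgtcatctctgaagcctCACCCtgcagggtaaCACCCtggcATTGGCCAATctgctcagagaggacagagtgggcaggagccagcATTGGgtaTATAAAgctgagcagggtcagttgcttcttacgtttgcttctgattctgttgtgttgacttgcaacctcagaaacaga
GATA motifs were found in Hba-x at -234 and -108, in Hbb-y at -162 and in Hba-a1 at -183, counted from the start site to the leftmost base, and none of these letters in the window of Hbb-bt. CACCC occurred in all 4 windows, 3 times in Hbb-bt. A TATA motif lay at -28 in Hba-x, Hbb-y and Hbb-bt. The Hba-a1 window reads catataag before its start, which the letters searched for do not match, so it is not marked. Motifs of this kind are common: of 32851 promoter windows of the same length, 29.8% held a GATA motif, 57.5% CACCC, 37.4% CCAAT and 15.4% a TATA motif. Of the Hba-a1 window, 297 aligned bases were identical in all 297 positions to that of Hba-a2, 3 bases apart in register. No probe carries the symbol Hba-a2, and whether the Hba-a1 probe also reads RNA of Hba-a2 was not tested.

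Over the whole series, 63.3% to 68.8% of probes per array lay well above background and 0 spots were saturated. Levels below are log2 intensities relative to the 75th percentile of each array, so that 0 is that percentile. Lung identity was clear, with Sftpc, a surfactant protein of alveolar type 2 cells, at 7.44 ± 0.11 in the wild types and 7.57 ± 0.14 in the knockouts (SD, n = 3 each). In a list of 9 lung genes, 7 differences between the groups were negative and 2 positive, with a median of -0.18. They ran from -1.73 (Scgb1a1) to 0.18, and none passed the limma test over all features. The Dppa2 probe read -3.24, -3.52 and -3.57 in wild types 1 to 3 and -4.94, -4.98 and -4.07 in knockouts 1 to 3, a difference of -1.22 without a call (limma adjusted p = 0.0606). The probe was well above background on all 3 knockout arrays, and knockout 3 was nearest to the wild types. Whether it lies in the deleted part is not known here, and Dppa4 signal did not exceed background in any lung. Wild types 1 and 2 had Y-linked signal (Ddx3y 0.97 and 1.33) and lacked Xist, while wild type 3 and the knockouts had Xist (2.56 to 3.13) and no Y-linked signal. Sex was thus unevenly spread over the groups. Wild types 1 and 2 shared a slide with knockout 3, knockouts 1 and 2 shared another, and wild type 3 was on a further one.

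The 3 embryonic globin genes were higher in every knockout lung than in any wild type lung. Groups did not overlap with the knockouts higher in 17% of all features, and in either direction in 31.3%. Hba-x passed the test over all features, a call that was lost in 12 of 18 alternative settings. The adult globins were among the brightest probes of every array and overlapped between the groups. Over the embryonic genes the mean difference was 1.97 on the log2 scale (3.93-fold), and over the adult genes Hba-a1 and Hbb-bt it was 0.12 (1.09-fold). Whether red cells of one kind were more numerous or held more of these RNAs cannot be told apart in whole lung.

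Hba-x encodes zeta globin, the embryonic alpha-like chain. Its 1 probe had an intensity of 299, 343 and 459 on wild types 1 to 3 and of 1891, 3595 and 1153 on knockouts 1 to 3. Scaled log2 levels were -2.48, -2.15 and -1.82 in the wild types and 0.22, 1.15 and -0.55 in the knockouts. The groups did not overlap: the lowest knockout, number 3, was 2.41-fold above the highest wild type, number 3. The mean rose from -2.15 ± 0.33 to 0.27 ± 0.85 (SD, n = 3 each). It was thus higher by 2.42 (SE, the standard error, 0.41; 95% interval 1.46 to 3.38; 5.36-fold; limma adjusted p = 0.0469 over all features). Against the wild type mean, knockouts 1, 2 and 3 stood 5.17-fold, 9.82-fold and 3.03-fold higher.

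Of the 5 globin genes 1 passed, in a fit in which 0.705% of 19866 features rose and 0.594% fell (258 called, 1.3%; 140 higher and 118 lower). The split depended on scaling: median scaling gave 88 higher and 218 lower, quantile normalization 59 and 138, and the values deposited by the authors 60 and 137. Since the genes were proposed with this contrast known, nothing is read from that count. Over the 18 alternatives the adjusted p of Hba-x ran from 0.0187 to 0.894 (limma), and its direction held in all 18. Leaving out wild type 1 or 2 or knockout 1 or 2 lost the call, at differences of 2.26, 2.42, 2.45 and 1.99 (limma adjusted p = 0.185, 0.155, 0.124 and 0.0696). With the replicate number as a block the difference was the same, 2.42, and the limma adjusted p = 0.0809.

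Hbb-y encodes epsilon-y globin, an embryonic beta-like chain. It read -1.89, -1.53 and -1.22 in wild types 1 to 3 and 0.0024, 1.62 and -0.72 in knockouts 1 to 3. Knockout 2 stood apart at 8.96-fold above the wild type mean, against 2.93-fold for knockout 1 and 1.77-fold for knockout 3. The groups did not overlap, and knockout 3 lay 1.42-fold above wild type 3. The difference of 1.85 (SE 0.55, 95% interval 0.56 to 3.14, 3.60-fold) did not pass (limma adjusted p = 0.105), with a knockout SD of 1.20 against 0.33 in the wild types. Without knockout 2 it was 1.19.

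Hbb-bh1 encodes beta-h1 globin, the other embryonic beta-like chain, and was the dimmest of the 3, with intensities of 66.1 to 106 in wild type and 204 to 536 in knockout lungs. Its brighter probe read -4.66, -3.85 and -4.05 in wild types 1 to 3 and -2.95, -1.60 and -3.04 in knockouts 1 to 3. The second probe read -5.00, -4.23 and -4.07 and then -3.21, -1.92 and -3.34. Both lay well above background on all 6 arrays and ordered the knockouts alike. The differences were 1.65 (SE 0.41, 95% interval 0.69 to 2.61, 3.14-fold; limma adjusted p = 0.0786) and 1.61 (SE 0.41; 0.0842 in the fit over all kept probes), and neither passed.

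The 3 embryonic genes shared their order of lungs. Knockout 2 was highest, then knockout 1, then knockout 3, then the wild types, at all 4 probes. This order was found in 4.09% of all features, and in 813 of the 3374 with every knockout above every wild type. Since the genes were proposed with their higher knockout levels known, the second share is the fitting one. Groups that did not overlap with the knockouts higher were found in 17% of all features, and a difference at least as large as that of Hbb-bh1 was found in 0.297%. Wild type 1 was lowest at all 4 probes. Wild type 3 was the highest of its group for Hba-x, Hbb-y and the second Hbb-bh1 probe, and wild type 2 for the other.

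**Figure D1:**
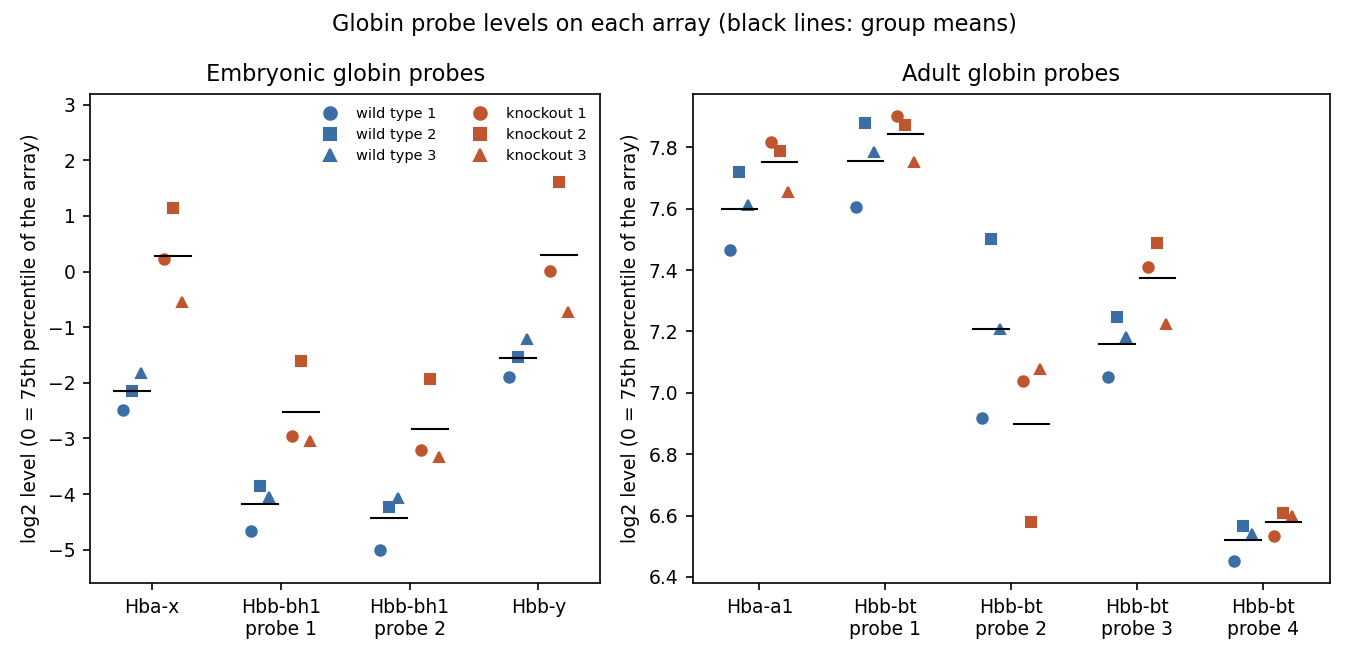
Scaled log2 level (vertical axis, 0 is the 75th percentile of the array) of each globin probe on the 6 arrays, with wild types in blue, knockouts in orange, symbols for the lung and black lines for group means; the 2 panels have different vertical scales. At the 4 embryonic probes every knockout lies above every wild type and knockout 2 is highest, while at the 5 adult probes the groups overlap.

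Hba-a1 encodes the adult alpha chain. Its intensities were 295364, 320348 and 316101 in wild types 1 to 3 and 365642, 358931 and 339510 in knockouts 1 to 3, which placed it between rank 2 and rank 4 of all probes on each array. Scaled log2 levels were 7.47, 7.72 and 7.61 in the wild types and 7.82, 7.79 and 7.65 in the knockouts. Knockout 3 lay below wild type 2, so the groups overlapped, and the difference of 0.15 (SE 0.11, 95% interval -0.12 to 0.43) did not pass (limma adjusted p = 0.431). Wild type 1 was lowest here as well.

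Hbb-bt, an adult beta chain gene, was covered by 4 probes. The brightest had rank 1 or 2 on every array and read 7.61, 7.88 and 7.78 in wild types 1 to 3 and 7.90, 7.87 and 7.75 in knockouts 1 to 3, a difference of 0.09 (SE 0.12, 95% interval -0.19 to 0.36, limma adjusted p = 0.672). The other probes differed by 0.21, 0.06 and -0.31 between the groups. The probe with the negative value had the widest spread, from 6.58 in knockout 2 to 7.50 in wild type 2, and knockout 2 was lowest at this probe and highest at the probe with 0.21. None of the 4 passed (limma adjusted p from 0.306 to 0.739), and in all of them the groups overlapped. The haplotype of the embryos at the adult beta genes was not tested.

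The brightest probes reached 41% to 44.1% of the scanner's saturation value. How far spots of this brightness still follow a change in RNA was not tested. Hba-a1 stayed positive under each scaling tried, down to 0.026 with median scaling, and was negative (-0.12) with the normexp background correction. Hbb-bt was negative with both, at -0.042 and -0.16. Those settings moved the median of all features from 0.0079 to -0.12 and 0.16.

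Set against the wild type mean within each array, the embryonic genes stood at 1.72, 3.01 and 1.19 in knockouts 1, 2 and 3 and the adult genes at 0.18, 0.15 and 0.02. The embryonic minus adult value was 1.54, 2.86 and 1.16 in the knockouts and -0.24, -0.0039 and 0.25 in wild types 1, 2 and 3. The group difference was 1.85 (wild type SD 0.24, knockout SD 0.89, n = 3 each), or 3.61-fold, and 1.82 with Hba-a1 as the only adult gene, a choice made after seeing the data. No test is attached, since the genes were chosen with this contrast known. All 3 knockouts lay above the 3 wild types.

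Slide and sex moved with the group in part, so the values within each are given beside the pooled ones. On the slide that held both groups, knockout 3 minus the mean of wild types 1 and 2 was 1.77 for Hba-x, 0.99 for Hbb-y and 1.21 for Hbb-bh1, against 0.06 for Hba-a1 and 0.0087 for Hbb-bt. Between knockout 3 and wild type 3, whose raw file names begin with the same number in the labels, it was 1.27, 0.50 and 1.00, against 0.04 and -0.03. Among the lungs without Y-linked signal, the mean of the 3 knockouts lay above wild type 3 by 2.09 for Hba-x, 1.52 for Hbb-y and 1.52 for Hbb-bh1. The embryonic minus adult value was 1.29 within the slide, 0.92 between knockout 3 and wild type 3, and 1.61 among the lungs without Y-linked signal. Knockouts 1 and 2, with the highest embryonic levels, were on a slide with no wild type lung, where slide and group cannot be told apart.

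**Figure D2:**
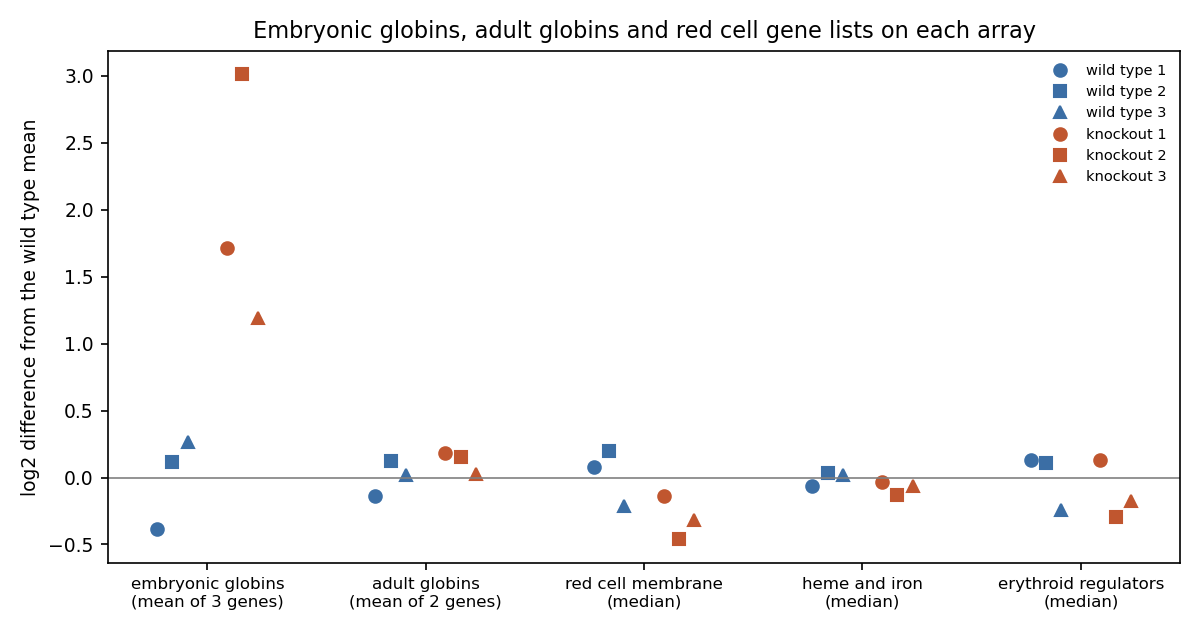
Log2 difference from the wild type mean (vertical axis) on each of the 6 arrays for the embryonic globins, the adult globins and 3 lists of red cell genes, with wild types in blue and knockouts in orange. The embryonic globins stand at 1.19 to 3.01 in the knockouts, while the adult globins stand between 0.02 and 0.18 and the list medians between -0.46 and 0.13.

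Other genes in and around both clusters gave no call, in a fit in which 1.3% of all features were called. The theta-like alpha genes Hbq1b and Hbq1a, next to the adult alpha genes, differed by -0.41 and -0.15, and neither passed (limma adjusted p = 0.329 and 0.821). Hbq1a was highest in knockout 3 (-2.79) and lowest in knockout 2 (-4.09). Nprl3, the gene before Hba-x whose introns hold the alpha-globin enhancers, differed by -0.04, and Mpg, a DNA glycosylase gene next to it, by 0.36, without a call. Sh3pxd2b, on the other side of the alpha cluster, differed by -0.21. The 6 genes on either side of the beta cluster are odorant receptor genes, and none was tested.

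Red cell genes outside the globins gave no call. Over 4 lists of erythroid regulators and of membrane, heme and iron, and cytosolic proteins of red cells, 44 of 50 genes were tested. Of these, 0 rose and 0 fell (limma; 6 at an unadjusted p under 0.05). Over all 19866 features 1.3% were called, and 5104 had an unadjusted p under 0.05. With so few features called, nothing is read from the lack of calls in 44 genes. Differences were negative in 34 and positive in 10, with a median of -0.11. Over all features the median was 0.0079 and 51% of differences were positive, and over the features with a gene symbol the median was -0.04. The list medians were -0.13, -0.14, -0.10 and -0.07 in that order.

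Among the regulators, Gata1, the master factor of red cell genes, differed by -0.03 (95% interval -0.47 to 0.41). Klf1, which activates adult beta-globin, read -4.65, -4.52 and -5.05 in wild types 1 to 3 and -3.77, -2.90 and -4.95 in knockouts 1 to 3. Its knockouts ranked in the order of the embryonic globins, knockout 3 overlapped with the wild types, and the difference of 0.86 (SE 0.47) did not pass (limma adjusted p = 0.291). Epor, the erythropoietin receptor, read -0.17, -0.49 and -0.46 in wild types 1 to 3 and 0.10, 0.34 and -0.10 in knockouts 1 to 3. It thus had the full order of the embryonic globins. That order was found in 4.09% of all features, and in 813 of the 3374 with every knockout above every wild type. The difference of 0.49 did not pass (limma adjusted p = 0.118). Nfe2, a partner in globin enhancer binding, differed by -0.48 (limma adjusted p = 0.173) and Zfpm1, the cofactor of Gata1, by -0.26. Gata2, the factor of earlier progenitors, differed by -0.31. Of 10 tested regulators, groups did not overlap in 1 with the knockouts higher (Epor) and 1 with the knockouts lower (Gata2). Over all features these shares were 17% and 14.3%, so nothing is read from these counts.

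In the membrane list 14 of 15 tested genes had negative differences. Slc4a1, the anion exchanger band 3, differed by -0.52, Epb42, protein 4.2, by -0.98 with 1 knockout array above background, and Ank1, ankyrin, by -0.95. The exception was Sptb, beta spectrin, at 1.75 (-3.12, -4.11 and -2.17 in wild types 1 to 3, -1.52, -1.17 and -1.47 in knockouts 1 to 3; limma adjusted p = 0.0815), while its other probes differed by 0.44 and 0.46. Sptb is also expressed in muscle and brain.

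Alas2, the first enzyme of heme synthesis in red cells, was abundant in both groups, at 4.95 ± 0.32 in the wild types and 4.55 ± 0.38 in the knockouts (SD, n = 3 each). The groups differed by -0.40 (95% interval -0.96 to 0.15). The other heme genes with the smallest p were Slc25a38, the mitochondrial glycine carrier (-0.23), Alad, the second enzyme of the pathway (-0.15), and Cpox, a later enzyme (-0.16). In the cytosol list, Car1, a carbonic anhydrase of red cells, differed by 0.45 and Trim10, a protein of late red cell maturation, by -0.68. Tspo2, a transporter of red cell precursors, differed by -0.21 and Bpgm, which sets oxygen affinity, by -0.09, and none of these passed.

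Factors known to act on globin switching gave no call in 13 of 13 tested genes, 6 with positive and 7 with negative differences. Since 1.3% of all features were called, nothing is read from this lack of calls. Groups did not overlap in 2 of the 13 with the knockouts higher and in 4 with the knockouts lower. Over all features these shares were 17% and 14.3%. Bcl11a, a repressor of embryonic beta-like globins, read -1.62, -1.75 and -1.49 in wild types 1 to 3 and -1.30, -1.06 and -1.10 in knockouts 1 to 3. Its groups did not overlap, and the difference of 0.47 (SE 0.12; second probe 0.53) did not pass (limma adjusted p = 0.0865). Zbtb7a, another repressor of these genes, differed by -0.35 (0.121), Hdac2, a deacetylase, by 0.30, and Chd4, a remodeller of the NuRD complex, by -0.33, with 0.24 and 0.15 at its other probes. Sox6, a partner of Bcl11a, differed by -0.25, and Myb, a factor of progenitors, by -0.22. Lin28b was below background on all 6 arrays.

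Markers of other blood cells had mostly negative differences. In the platelet list all 10 tested genes had negative differences and 0 passed, with a median of -0.55. Groups did not overlap, with the knockouts lower, in 7 of these 10 genes, against 14.3% of all features. Over all features 0.594% fell and the median was 0.0079, or -0.04 over those with a gene symbol. Gp5, Gp6 and Gp1bb, platelet glycoproteins among those of smallest p, differed by -0.61, -0.53 and -0.35. In the neutrophil list 8 of 9 differences were negative, with a median of -0.88, and in 6 the groups did not overlap with the knockouts lower. Of the 9, 1 passed: S100a8, a calcium-binding protein, fell by 0.98 (limma adjusted p = 0.0381). Camp, S100a9 and Ltf, granule and calcium-binding proteins of neutrophils, differed by -1.14, -0.89 and -0.88 and did not pass. The summed neutrophil level was 23.8 to 36.6 times the 75th percentile in the wild types and 14.9 to 19 times in the knockouts. Most of it came from S100a9, at log2 levels of 4.89, 4.65 and 4.24 in wild types 1 to 3 and 3.59, 3.97 and 3.55 in knockouts 1 to 3. The part of the neutrophil level in the globin differences was not tested.

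Liver, the fetal source of definitive red cells, was checked by 12 marker genes. Of 11 with a probe, 3 lay above background on all 6 arrays and 3 (Apoa1, Fga and Fgb) on none. The summed level of the 3 tested genes was 1.31 to 2.27 in wild type and 1.25 to 2.21 in knockout lungs. Most of it came from Rbp4, a retinol-binding protein, at log2 levels of 1.06, 1.08 and 0.22 in wild types 1 to 3 and 0.46, 1.03 and 0.21 in knockouts 1 to 3. Alb, albumin, was dim, at a mean of -3.02 in the wild types and -3.31 in the knockouts. It differed by -0.29 and Afp, alpha-fetoprotein, which yolk sac and fetal liver make, by -0.02.

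**Figure D3:**
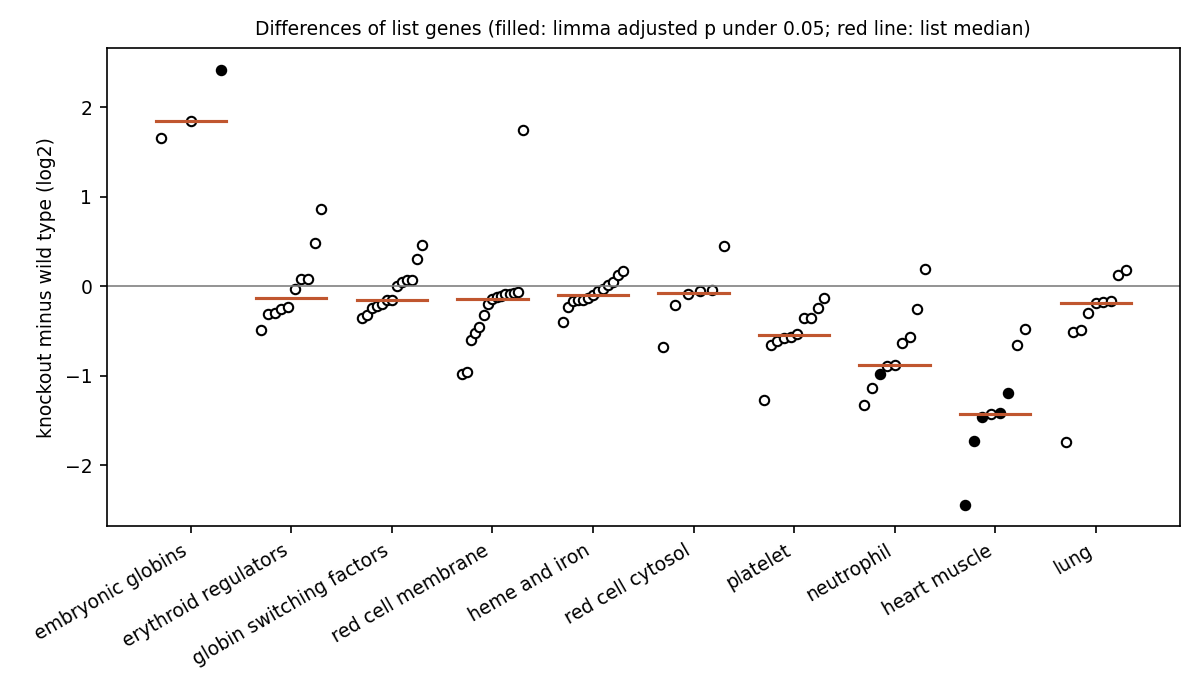
Knockout minus wild type difference (vertical axis, log2) of each tested gene in 10 gene lists; filled circles passed the limma test over all features and red lines are list medians. The embryonic globins lie at 1.65 to 2.42, while the 4 red cell lists have medians between -0.14 and -0.07 and 0 filled circles. Of all features, 1.3% were called.

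Among 13925 other named features, likeness to Hba-x was ranked by the root mean square difference of log2 levels over the 6 arrays, each gene centred on its own mean. Hbb-y was nearest (0.36) and Hbb-bh1 had rank 3 (0.46). Between them stood Abi3bp (0.42), an extracellular matrix protein gene, which rose by 2.30 (limma adjusted p = 0.00354). Srrm3, a splicing factor gene (0.55), and Olfr1065, an odorant receptor gene (0.58), followed. Hba-a1 and Hbb-bt were at ranks 2980 and 3917. The Hba-x values that rank the genes include the contrast the genes were chosen on. Hba-a1 in turn was nearest to Atp5g3, a subunit of ATP synthase (0.02), and Rps2, Usp14, Sltm and Rps20 (0.03 each), with Hbb-bt at rank 7.

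**Figure D4:**
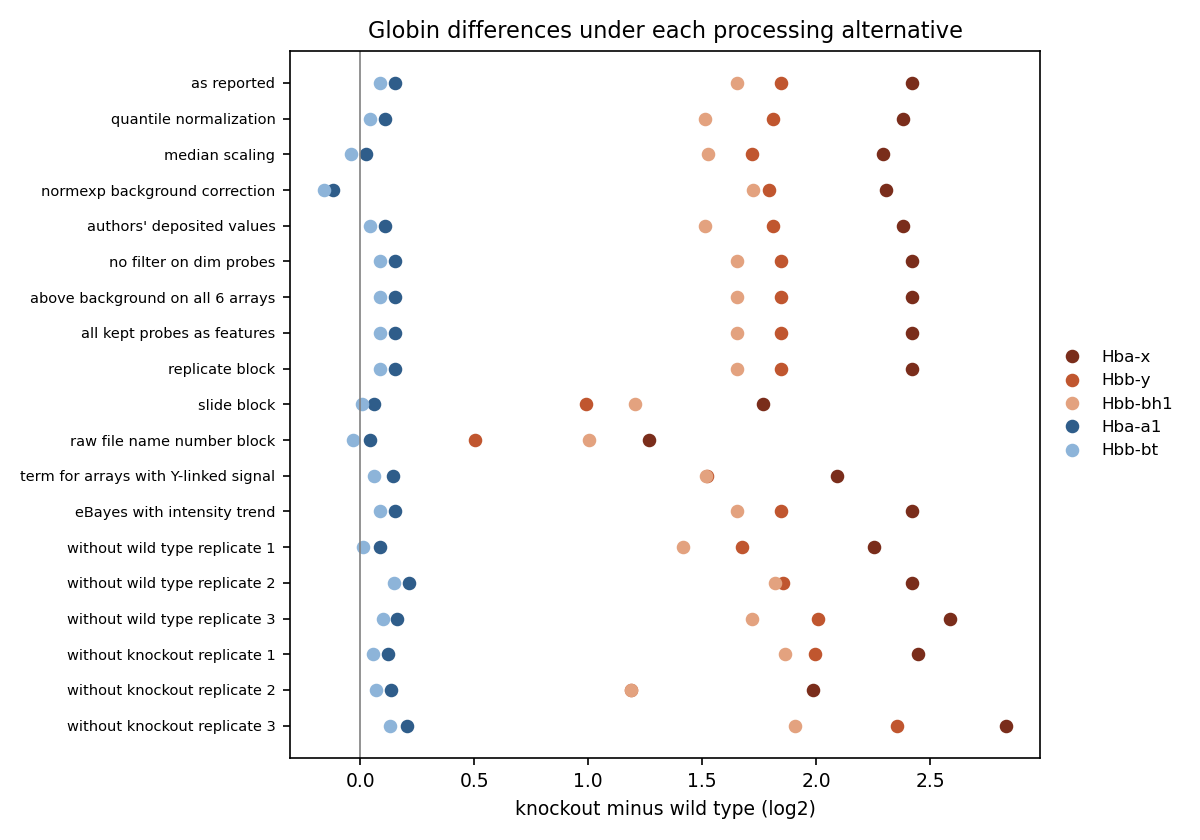
Knockout minus wild type difference (horizontal axis, log2) of 5 globin genes as reported and under 18 alternatives (vertical axis). Without knockout 2 the points of Hbb-y and Hbb-bh1 coincide at 1.19. The embryonic globins stay between 0.50 and 2.83 and the adult globins between -0.16 and 0.21.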

How the data were processed

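RNA of 6 lungs was labelled with Cy3 and hybridised to 1-colour Agilent whole mouse genome arrays, per the series' design text. Slides were quantified with Feature Extraction 10.7.3.1 on an mm9 design, per the file headers. The deposited intensity of each spot was background-subtracted and detrended within the array, with no scaling between arrays. The authors' deposited log2 values, set relative to the wild type median as judged against the scanner values, served as an alternative. Their scaling is not stated. They gave almost the same results as quantile normalization (197 features called and 2.38 for Hba-x in each), so these alternatives are not independent of each other. Depth does not apply, and the number of arrays limits the precision.

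Probes were named by accession through RefSeq genes on GRCm38.p6 (26690 of 41174 probes, 64.8%). Outlier spots were left out, spots of a probe averaged, and log2 intensities set relative to the 75th percentile of the array. Probes were kept (26667) if every array of a group had them well above background, and the probe of highest mean stood for each gene (19867 features; 1 could not be fitted). Knockout was tested against wild type with limma 3.58.1 (R 4.3.3) without covariates, two-sided, with Benjamini-Hochberg adjustment at 0.05. With 3 against 3 arrays an exact permutation test cannot go below 0.1. The fit was tested on simulated data.

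The genes and lists were chosen with earlier results of these data known. Named genes are all member probes, up to 4 of smallest p per list, a few fixed genes, and the 5 nearest to Hba-x and Hba-a1. Myb, Sox6, Lin28b, Nprl3, Mpg, Sh3pxd2b and Sftpc were named after their values were seen, and 2 genes that the rule names are not reported here. The planned normexp alternative (offset 50) used median spot signals, since the files hold no mean signal. Other alternatives changed the scaling, the filter, the blocks and the arrays used.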

Additional observations from a re-analysis of the deposited data

How the results depend on the processing

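The embryonic globins kept their direction in 18 of 18 alternatives each, with differences of 1.27 to 2.83 for Hba-x, 0.50 to 2.36 for Hbb-y and 1.00 to 1.91 for Hbb-bh1. The Hba-x call was lost with quantile normalization (2.38), the authors' deposited values (2.38), normexp (2.31), no filter on dim probes (2.42), the slide as a block (1.77), the number of the raw file name as a block (1.27), a term for the arrays with Y-linked signal (2.09) and the replicate block (2.42). In these settings 0 of 5 globin genes passed. Leaving out 1 array gave 1.99 to 2.83 for Hba-x and 0 to 1 globin genes passing. The count over all features, 258, was 28 without the filter, 57 with the replicate block, 22 with the slide block, 26 with the Y-linked term, and 0 with normexp or the raw file name block (limma; 1522 and 1064 at an unadjusted p under 0.05). It ran from 34 to 1966 without 1 array, 34, 55, 59 and 80 without wild types 1 and 2 and knockouts 1 and 2, and 1966 and 439 without wild type 3 and knockout 3. The cause was not tested. Same-numbered arrays had deviations correlated at -0.02, 0.04 and 0.03, and not every lung correlated best with its own number, so the replicate numbers were not taken to pair lungs. The embryonic minus adult value was 0.92 with the raw file name block and 0.92 to 2.20 over all alternatives. Adult globins changed sign with normexp (Hba-a1 -0.12, Hbb-bt -0.16), and Hbb-bt also with median scaling (-0.042) and the raw file name block (-0.032). The median of the red cell lists, -0.11, was -0.24 with median scaling. All 9 globin probes were well above background on the 6 arrays, so the number of arrays limits the precision.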

Other observations

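The globins outside red cells were also measured. Mb, myoglobin of heart and skeletal muscle, read -3.98, -4.54 and -4.14 in wild types 1 to 3 and -5.64, -5.61 and -6.15 in knockouts 1 to 3, of which 1 array was above background. It fell by 1.58 in the fit (SE 0.21, limma adjusted p = 0.0247), a size that rests on knockout signals of which 2 were not well above background. In the heart muscle list 5 of 8 tested genes fell and 0 rose, with a median of -1.42 against 0.0079 over all features and -0.04 over those with a gene symbol, in a fit in which 0.594% of features fell. Those of smallest p were Myl3 (-2.44; second probe -1.37), Myl4 (-1.72), Myl7 (-1.46), myosin light chains, and Actn2, alpha-actinin (-1.19). The summed level of the list was 23 to 24.6 times the 75th percentile in the wild types and 8.48 to 10.5 times in the knockouts. Ngb, neuroglobin, differed by -0.48 (limma adjusted p = 0.11) with groups that did not overlap, and Cygb, cytoglobin of fibroblasts, by -0.15 with groups that did.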
